A study of Homo sapiens with 20 samples.

Results

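Mitochondrial ribosomal protein genes encode the protein part of the ribosome that works inside mitochondria. They were taken here as the genes whose symbol is MRPL or MRPS, a number and at most one further letter from A to C, and whose counts passed a filter on low values over the 5 groups of the study. Of 78 genes with such a symbol, 75 passed, 47 named for the large subunit (MRPL) and 28 for the small subunit (MRPS), among 13729 genes tested in all. MRPL38, MRPL53 and MRPS24 did not pass, with at most 10, 1 and 10 counts in any library. By structure MRPS30 and MRPS18A belong to the large subunit, although their symbols name the small one. MRPS36 is now known as a subunit of the oxoglutarate dehydrogenase complex and was kept because the symbol decides.

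The mitochondrial ribosome makes a small set of hydrophobic membrane proteins of the respiratory chain and of ATP synthase, all of them encoded by mitochondrial DNA. Its RNA comes from mitochondrial DNA, whereas its proteins are encoded in the nucleus, made in the cytosol and imported. Some of them have a counterpart in bacteria and others exist only in mitochondria. Loss of single members causes inherited defects of oxidative phosphorylation.

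RNA was measured in cultures of IMR-32, a long-established human neuroblastoma line with an amplified MYCN gene, labelled wild type and of the cell type neuroblast. There were 5 groups of 4 libraries after 24 h: prexasertib together with Dyngo-4a (the combination), Dyngo-4a at 2.26 µM (the high dose), Dyngo-4a at 1 µM (the low dose), prexasertib at 2 nM, and DMSO. Prexasertib inhibits the checkpoint kinase CHK1, Dyngo-4a blocks dynamin GTPases, and for the combination no doses are stated. The comparisons ask how each treatment, and both together, changed expression in these cells. The assay counted 3′ ends of mRNA, and levels are in CPM, counts scaled by TMM to a common library total. A gene was called when the p-value of edgeR's quasi-likelihood test, adjusted over all 13729 genes, was below 0.05.

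Library totals ran from 3960885 to 6537843 counts, and all libraries carry the same batch number in the labels. The labels do not state if libraries of one group stem from separate flasks, so the p-values measure the spread between these libraries, which may be technical. Within each group, libraries numbered 2 and 4 held a higher mean summed level of both subunits than libraries numbered 1 and 3. The split was not confined to these genes. On axis 3 of a principal component analysis of the most variable genes, numbers 1 and 3 were positive and numbers 2 and 4 negative in every group. What sets these numbers apart is not stated, and the main model held no term for it. Of 10 neuroblast markers, 9 or 10 averaged at least 1 CPM in each group, and none of 7 markers of brain glia did, with GFAP, MOG, OLIG1 and OLIG2 at 0 counts in the combination. None of 15 listed RNAs encoded by mitochondrial DNA was found by symbol in the deposited counts, so they are not analysed here.

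As a group, these genes were lower after the high dose of Dyngo-4a, more so in the large subunit. The summed level of the 47 MRPL genes was 2829, 3251, 2968 and 3287 CPM in high-dose libraries, against 3382, 3492, 3404 and 4001 CPM in DMSO libraries. The groups did not overlap. The means were 3084 ± 222 and 3570 ± 291 CPM (SD, n = 4 each), a change of -13.6%, which was -14.6% within numbers 1 and 3 and -12.7% within numbers 2 and 4. The 28 MRPS genes summed to 2285 ± 156 CPM in high-dose libraries and 2463 ± 157 CPM in DMSO libraries, a change of -7.24%, and the ranges overlapped. Without DMSO library 4, whose MRPS sum stood far above the other DMSO libraries, that change was -4.21%. This library also held the highest MRPL sum in DMSO, and without it the MRPL change was -9.99%. In bulk RNA, fewer cells of a type and less RNA per cell cannot be told apart.

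The combination showed the other order of the subunits. The MRPL sum was 3323 ± 348 CPM in the combination, a change of -6.91% against DMSO, and the MRPS sum was 2196 ± 192 CPM, a change of -10.8%. The MRPL change was -10.8% within numbers 1 and 3 and -3.39% within numbers 2 and 4. It was -3.01% without DMSO library 4, -4.11% and -4.18% without combination libraries 1 and 3, and -10.4% without combination library 4. The MRPS change was -14.4% within numbers 1 and 3 and -7.57% within numbers 2 and 4. With the low dose the sums were 3386 ± 238 CPM for MRPL and 2308 ± 144 CPM for MRPS, and with prexasertib 3495 ± 241 and 2406 ± 138 CPM. The sums are a description and were not tested. Genes of cytosolic ribosomal proteins were taken by symbol, a rule that also admits paralogues with an L after the number. The 83 tested ones summed 9.47% higher after the high dose and 11.9% higher in the combination than in DMSO. Without DMSO library 4 these changes were 16.05% and 18.7%, and like the other sums given with a library left out they were computed after seeing the data. The first was 14.7% and 6.15% without high-dose libraries 1 and 2, and the second was 7.72% without combination library 2.

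**Figure D1:**
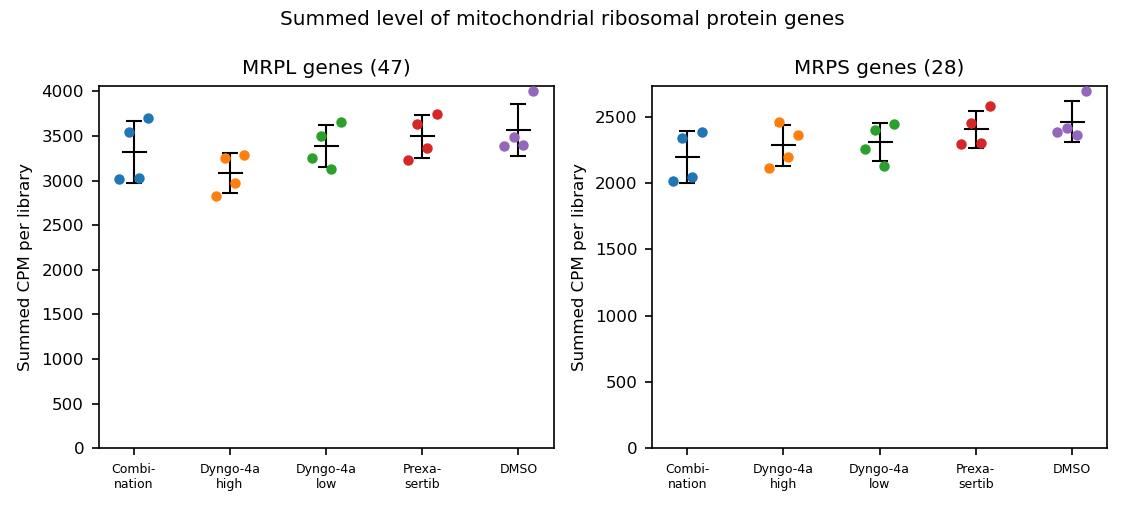
Summed CPM of the 47 MRPL genes (left) and the 28 MRPS genes (right) in each library, by group. Points are libraries in the order of their numbers, bars are the mean ± SD of 4. The 4 high-dose MRPL sums, 2829 to 3287 CPM, lie below the DMSO sums, 3382 to 4001 CPM.

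After the high dose, 21 of the 75 genes fell and 5 rose against DMSO. The called share was 34.7%, and over all tested genes it was 25.2%, with 12.7% called lower and 12.5% called higher. Of the 47 MRPL genes 15 fell and 3 rose, with a median log2 fold change of -0.25, and of the 28 MRPS genes 6 fell and 2 rose, with a median of -0.15. The median over all 75 was -0.20, against 0.00 over all tested genes. Of the 75 values 56 were negative, where 49.7% of all tested genes were. Counted by structure, 15 of 49 large-subunit genes and 6 of 25 small-subunit genes fell. Libraries of both groups did not overlap for 23 of the 75 genes (20 lower, 3 higher), a share of 30.7%, against 23.3% of all tested genes. The number of members called against DMSO was between 18 and 27 when single libraries were left out. In settings added after seeing the data it was 24 within numbers 1 and 3 and 16 within numbers 2 and 4, where 16.1% of all tested genes were called in each. It was 37 (8 higher, 29 lower) with a term for this split, under which 30.9% of all tested genes were called.

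**Figure D2:**
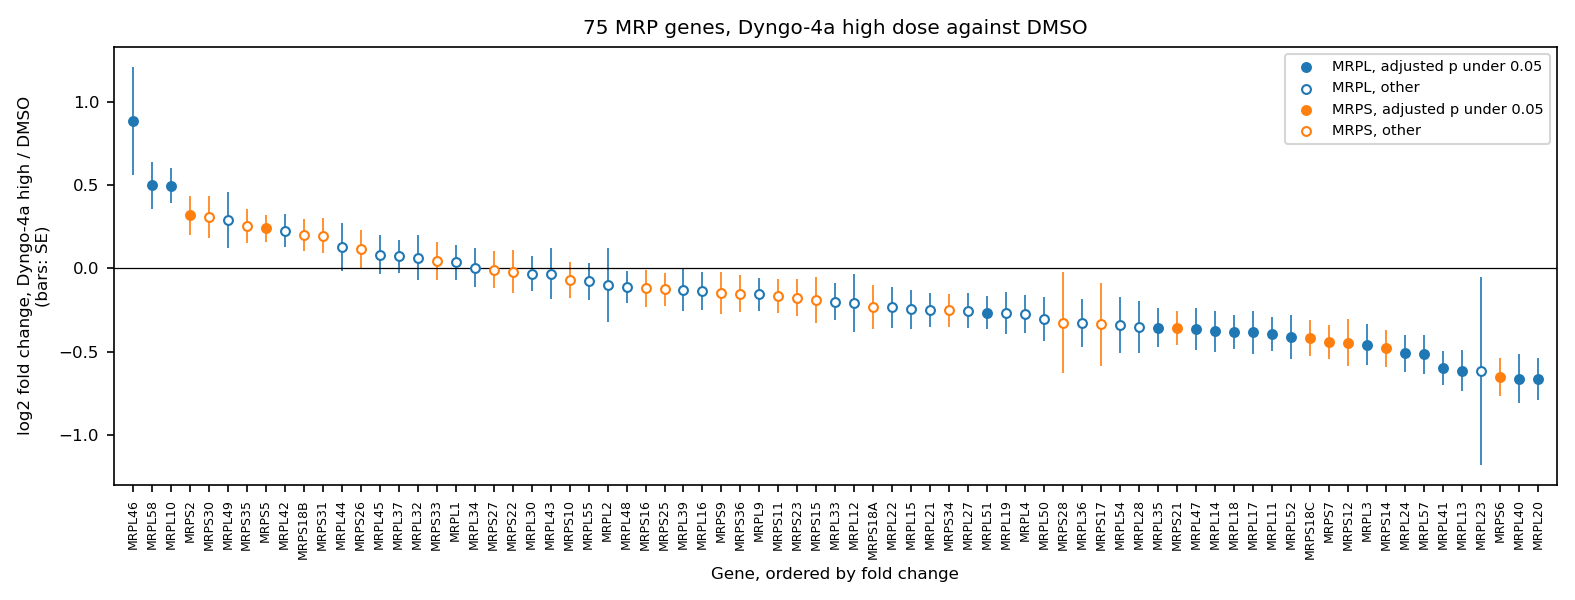
Log2 fold change of each of the 75 genes after the high dose against DMSO, ordered from the highest to the lowest, with standard errors as bars. Blue marks MRPL and orange MRPS genes, and filled points are called. The values run from 0.89 for MRPL46 to -0.66 for MRPL20.

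MRPL20 had the lowest fold change of the members after the high dose. This gene, on chromosome 1 (GRCh38, 1401908 to 1407313, minus strand), encodes bL20m, whose bacterial counterpart binds ribosomal RNA early in large-subunit assembly. Its level was 49.9, 63.2, 49.0 and 61.3 CPM in high-dose libraries, against 87.3, 74.7, 85.8 and 105 CPM in DMSO libraries. Every high-dose library lay below every DMSO library, with a log2 fold change of -0.66 ± 0.13 (SE) and an adjusted p of 0.000147. MRPL40, on chromosome 22 (19431902 to 19436075, plus strand), encodes mL40 of the central protuberance, the head-like part of the large subunit. It had 28.6, 31.3, 31.4 and 34.3 CPM in high-dose libraries, against 45.3, 52.1, 43.9 and 57.6 CPM in DMSO libraries, again without overlap (log2 fold change -0.66 ± 0.15, adjusted p = 0.000884). MRPL40 overlaps HIRA and C22orf39 on the other strand. Their log2 fold changes were -0.69 and 0.21, and neither was called.

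MRPS6 was the small-subunit gene with the lowest fold change after the high dose. It encodes bS6m, a protein of the platform of the small subunit, and lies on chromosome 21 (34073224 to 34143034, plus strand). Levels were 52.3, 52.9, 50.8 and 50.8 CPM in high-dose libraries, against 76.3, 93.3, 77.0 and 78.6 CPM in DMSO libraries. The high-dose libraries lay close together and below DMSO throughout, with a log2 fold change of -0.65 ± 0.11 and an adjusted p of 4.33e-05. SLC5A3, a transporter gene that overlaps MRPS6 on the same strand, had a log2 fold change of -0.16 (adjusted p = 0.326).

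Further large-subunit genes fell by similar amounts. MRPL41, which encodes the mitochondrion-specific mL41, had 59.2, 58.7, 57.3 and 60.7 CPM in high-dose libraries, against 87.0, 93.8, 83.4 and 93.3 CPM in DMSO libraries. Its log2 fold change of -0.60 ± 0.10 had the smallest adjusted p of all members, 3.24e-05. MRPL13, which encodes uL13m, averaged 56.6 ± 11.1 CPM after the high dose and 86.7 ± 12.7 CPM in DMSO (log2 fold change -0.61 ± 0.12, adjusted p = 0.000321). MRPL57, which encodes mL63, averaged 71.3 ± 10.0 CPM after the high dose and 102 ± 12.1 CPM in DMSO, with a log2 fold change of -0.52 ± 0.12. Libraries of both groups did not overlap for any of these 3 genes. The annotation lists 5 pseudogenes named after MRPL57 and 8 named after MRPS21, and it is not stated how reads shared with such copies were counted.

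The remaining 15 genes that fell after the high dose had log2 fold changes between -0.51 and -0.27. They include MRPS12 (-0.45 ± 0.14), whose product uS12m sits at the decoding centre, and MRPL11 (-0.39 ± 0.10), whose product uL11m lies where translation factors bind. MRPL3 (-0.46), MRPS14 (-0.48), MRPS7 (-0.44) and MRPS18C (-0.42) encode proteins with bacterial counterparts. MRPL51, the member with the highest DMSO level at 402 ± 56.7 CPM, averaged 334 ± 17.1 CPM after the high dose (log2 fold change -0.27 ± 0.10, adjusted p = 0.0406). For MRPL51 the libraries of both groups overlapped by 1 DMSO library at 352 CPM, below the highest high-dose library at 353 CPM. MRPL51 overlaps NCAPD2 on the other strand, a gene that was itself called lower (log2 fold change -0.25, adjusted p = 0.0225). The strand setting of the counting is not stated, and the part of NCAPD2 in the MRPL51 value was not tested.

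Among 6 genes whose products surround the exit of the peptide tunnel, where new chains leave towards the inner membrane, 3 fell after the high dose and none rose. These were MRPL24 (-0.51 ± 0.11), MRPL17 (-0.38 ± 0.13) and MRPL47 (-0.36 ± 0.13). Over all tested genes 12.7% were called lower and 12.5% higher. MRPL45, whose product anchors the ribosome to the membrane, had a value of 0.08 ± 0.11 and MRPL22 one of -0.23 ± 0.12, neither called. MRPL23, the tested member with the lowest level, at 1.86 ± 1.06 CPM in DMSO, had a value of -0.62 ± 0.56 that was not called (adjusted p = 0.464). The genes of this and of the following role groups were grouped after their values were known.

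Of 5 tested genes listed here for the central protuberance, 2 fell and 2 rose after the high dose. Of all tested genes 12.7% were called lower and 12.5% higher. MRPL40 and MRPL18 (-0.38 ± 0.10) fell, MRPL46 and MRPL58 rose, and MRPL48 had a value of -0.11 ± 0.10 that was not called. The call for MRPL46 was lost without high-dose library 1, among other settings, and that for MRPL58 without high-dose library 4. At the stalk that recruits translation factors, MRPL10 rose, MRPL11 at its base fell, and MRPL12 had a value of -0.21 ± 0.18 that was not called.

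MRPL58 encodes mL62, also known as ICT1, a peptidyl-tRNA hydrolase built into the large subunit that frees chains from stalled ribosomes. On chromosome 17 (75012670 to 75021261, plus strand), it had 26.8, 38.5, 39.0 and 45.8 CPM in high-dose libraries, against 25.3, 27.6, 28.01 and 25.8 CPM in DMSO libraries. The first high-dose library lay within the DMSO range and the other 3 lay above it. The log2 fold change was 0.50 ± 0.14 (adjusted p = 0.0084), and the call was lost without high-dose library 4, over alternatives with adjusted p between 0.000895 and 0.0542. MRPL10 encodes uL10m, which carries the stalk proteins, and lies on chromosome 17 (47823272 to 47831534, minus strand). Its level was 59.6, 60.1, 61.3 and 55.9 CPM in high-dose libraries, against 37.9, 48.9, 36.7 and 44.8 CPM in DMSO libraries. The groups did not overlap, with a log2 fold change of 0.50 ± 0.11 and an adjusted p of 0.000576.

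MRPL46 had the highest fold change, 0.89 ± 0.32 (adjusted p = 0.0403), at a low level. It encodes mL46 of the central protuberance. Levels were 8.09, 4.50, 4.35 and 4.25 CPM in high-dose libraries, against 3.997, 2.76, 2.42 and 2.24 CPM in DMSO libraries. The groups did not overlap, but 1 high-dose library stood far above the others, and without it the gene was not called. The same happened without DMSO library 2, 3 or 4, without the filter on low counts and with the compared groups alone. In the small subunit, MRPS2 (0.32 ± 0.12, adjusted p = 0.0444) and MRPS5 (0.24 ± 0.08, adjusted p = 0.0267) rose. They encode uS2m and uS5m, and uS5m lies at the entry of the mRNA channel. MRPS5 averaged 181 ± 3.41 CPM after the high dose and 153 ± 4.40 CPM in DMSO, without overlap. The call for MRPS2 was lost without DMSO library 1, 2 or 3, high-dose library 2, 3 or 4 or prexasertib library 2, without the filter and with limma-voom. That for MRPS5 was lost without DMSO library 3 or 4 or high-dose library 2, without the filter and with the compared groups alone.

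**Figure D3:**
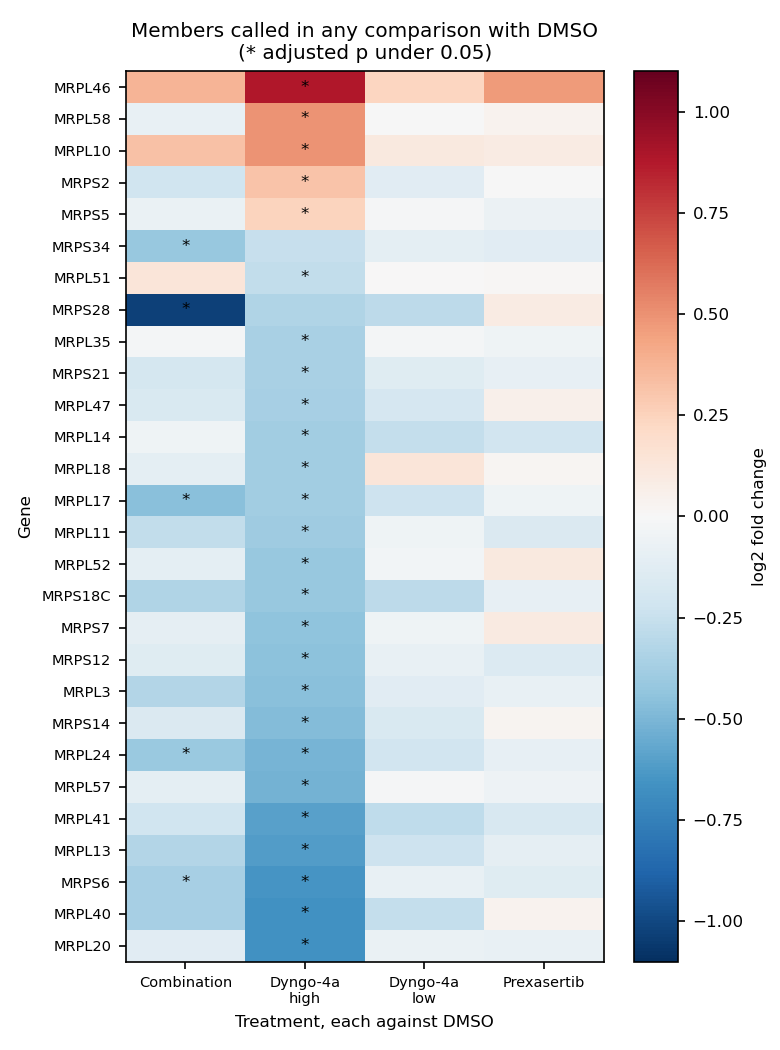
Log2 fold change against DMSO of the 28 genes called in at least 1 of the 4 comparisons with DMSO, by treatment, ordered by the high-dose value. Red is higher and blue lower than DMSO, and an asterisk marks a called value. The low dose and prexasertib columns hold no asterisk, and MRPL17, MRPL24 and MRPS6 have one in both the combination and the high dose.

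In the combination, 5 of the 75 genes fell against DMSO and none rose, a called share of 6.67% beside 6.3% of all tested genes (3.47% called higher, 2.83% called lower). The median log2 fold change was -0.13, against 0.00 over all tested genes. Of the 75 values 61 were negative, where 49.7% of all tested genes were. An unadjusted p under 0.05 was found for 20 of the 75, 26.7%, against 19.5% of all tested genes. By subunit, 2 of 47 MRPL and 3 of 28 MRPS genes fell, with medians of -0.12 and -0.14. Libraries did not overlap for 7 genes, 9.33%, against 10.9% of all tested genes. The count of 5 dropped to 3 without DMSO library 2 and to 2 without DMSO library 1. It was 1 without DMSO library 4, without combination library 1 and without combination library 3, and it was 1 when the combination and DMSO were fitted without the other groups. With a term for numbers 1 and 3 against 2 and 4, added after seeing the data, it was 15 (1 higher, 14 lower), where 10.4% of all tested genes were called. Within numbers 1 and 3 it was 7 and within numbers 2 and 4 it was 0, where 6.59% and 1.6% of all tested genes were called.

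MRPS34 kept its call under each of 28 alternatives in this comparison. It encodes mS34, a mitochondrion-specific small-subunit protein whose loss causes Leigh syndrome, on chromosome 16 (1771890 to 1773155, minus strand). Levels were 103, 123, 95.6 and 101 CPM in the combination, against 143, 139, 127 and 157 CPM in DMSO. Each combination library lay below each DMSO library, with a log2 fold change of -0.42 ± 0.10 and an adjusted p of 0.00655. After the high dose MRPS34 averaged 119 ± 6.49 CPM, a log2 fold change of -0.25 ± 0.10 that was not called (adjusted p = 0.0579), and the combination and the high dose differed by -0.17 ± 0.10 (adjusted p = 0.258).

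MRPS28 had the lowest fold change in the combination at a low level. It encodes bS1m of the small subunit, and had 2.66, 3.62, 3.18 and 1.63 CPM in the combination, against 5.33, 5.01, 4.03 and 8.01 CPM in DMSO. The groups did not overlap, and the log2 fold change was -1.02 ± 0.32 (adjusted p = 0.0492). The call was lost under 16 of the 28 alternatives, with adjusted p between 0.0223 and 0.21. These include leaving out DMSO library 1, 2 or 4, low-dose library 1, high-dose library 1 or 3, any prexasertib library, or combination library 1, 3 or 4. MRPS28 was also the member called lower in the combination than with prexasertib, where it had 6.03 ± 1.098 CPM (log2 fold change -1.12 ± 0.32, adjusted p = 0.041). That call was lost with limma-voom and without prexasertib library 1, 2 or 4 or combination library 1, 3 or 4.

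MRPL17, MRPL24 and MRPS6 fell both in the combination and after the high dose against the same DMSO libraries. They are 14.3% of the 21 genes that fell after the high dose and 60.0% of the 5 that fell in the combination. MRPL17 encodes bL17m, and had 30.0, 37.4, 28.8 and 48.8 CPM in the combination, against 51.2, 45.6, 51.6 and 51.9 CPM in DMSO (log2 fold change -0.46 ± 0.13, adjusted p = 0.0256). The fourth combination library lay within the DMSO range. Its value was -0.80 within numbers 1 and 3 and -0.19 within numbers 2 and 4. MRPL24 averaged 59.6 ± 11.3 CPM in the combination and 79.1 ± 7.94 CPM in DMSO (-0.40 ± 0.11, adjusted p = 0.023), and MRPS6 averaged 62.7 ± 11.3 CPM in the combination and 81.3 ± 8.04 CPM in DMSO (-0.37 ± 0.11, adjusted p = 0.0418). Calls for MRPL17 were lost without DMSO library 1, 3 or 4 or combination library 1 or 3, and those for MRPL24 without DMSO library 1, 2 or 4 or the same combination libraries. With the compared groups alone all 3 calls were lost. The call for MRPS6 was also lost without any one DMSO library, without low-dose library 2 and without combination library 1 or 3.

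**Figure D4:**
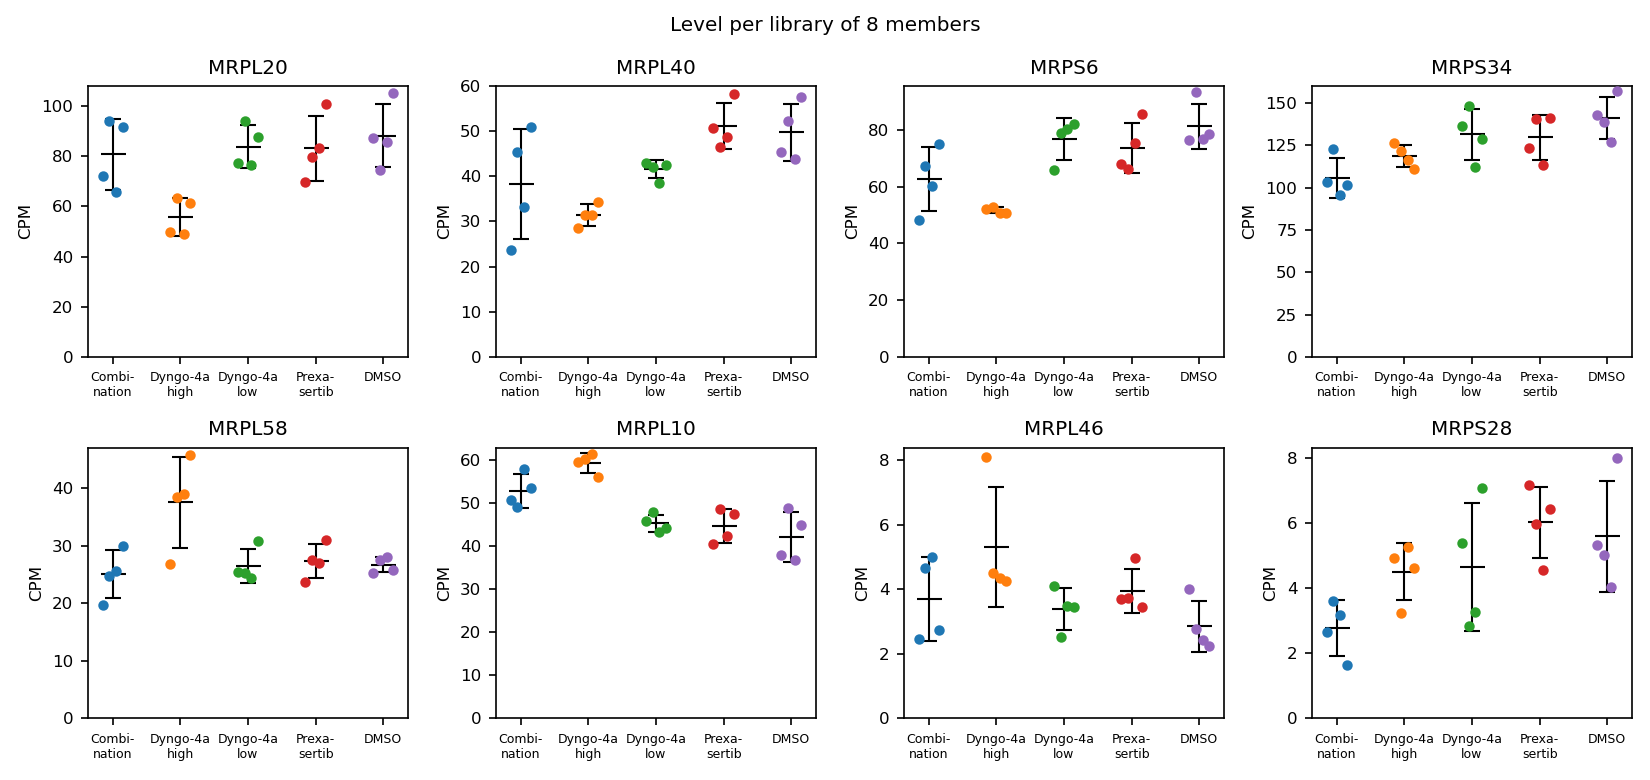
CPM per library of 8 members in the 5 groups. Points are libraries in the order of their numbers, and bars are the mean ± SD of 4. MRPL20, MRPL40 and MRPS6 have their lowest means after the high dose, MRPL58, MRPL10 and MRPL46 their highest there, and MRPS34 and MRPS28 their lowest in the combination.

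After the low dose of Dyngo-4a none of the 75 genes was called by edgeR against DMSO, where 0.262% of all tested genes were. An unadjusted p under 0.05 was found for 6 members, 8% of the 75, against 7.57% of all tested genes, the smallest adjusted p was 0.445, and DESeq2 and limma-voom called none either. The median log2 fold change was -0.08, against 0.01 over all tested genes. Of the 75 values 57 were negative, where 48.7% of all tested genes were. Libraries did not overlap for 4 members, 5.33%, beside 4.62% of all tested genes. MRPL41 had 73.7 ± 4.67 CPM after the low dose, between the high-dose and DMSO levels, with a value of -0.28 ± 0.10. MRPS18C had a value of -0.29 ± 0.11. MRPL20, MRPS6 and MRPL57 had values of -0.08, -0.08 and -0.01.

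Prexasertib alone gave no called member by edgeR against DMSO, and 0.0% of all tested genes were called. Of the members, 1 had an unadjusted p under 0.05, where 3.77% of all tested genes did, and DESeq2 and limma-voom called none. Libraries overlapped for every member, while they did not for 2.94% of all tested genes. The median log2 fold change was -0.02, and the values of MRPL20 (-0.09 ± 0.12), MRPL40 (0.04 ± 0.14) and MRPS34 (-0.13 ± 0.10) were within 2 standard errors of 0.

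Set against the low dose, the high dose had 13 genes lower and 6 higher, 25.3% of the 75, against 20.2% of all tested genes (10.1% called lower and 10.1% higher). Libraries did not overlap for 19 members, 25.3%, beside 21.0% of all tested genes. This comparison shares the high-dose libraries with that against DMSO. The 6 lowest of the called members were MRPL20 (-0.59 ± 0.13), MRPS6 (-0.57 ± 0.11), MRPL18 (-0.52 ± 0.10), MRPL57 (-0.50 ± 0.12), MRPL50 (-0.43 ± 0.13) and MRPS7 (-0.40 ± 0.10). MRPL20 had 55.8 ± 7.45 CPM after the high dose and 83.8 ± 8.45 CPM after the low dose, without overlap, at an adjusted p of 0.000868. Higher were MRPL58 (0.50 ± 0.14), MRPS2 (0.44 ± 0.12), MRPL10 (0.39 ± 0.11), MRPS31 (0.30 ± 0.11), MRPS18B (0.30 ± 0.10) and MRPS5 (0.26 ± 0.08). MRPS18B overlaps PPP1R10 on the other strand, a gene with a log2 fold change of -1.20 after the high dose against DMSO. Calls were lost for MRPL58 without high-dose library 4, for MRPL50 without low-dose or high-dose library 4, for MRPS18B without low-dose library 3 or high-dose library 2 or 4, and for MRPS5 without low-dose library 1 or without the filter. The call for MRPS31 was lost without low-dose library 1, 2 or 3 or high-dose library 2, 3 or 4, with library sizes alone and without the filter. Without low-dose library 4 the count of 19 was 12.

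Between the combination and the high dose, 9 members were higher in the combination and 8 lower, 22.7% of the 75, against 20.5% of all tested genes (10.4% higher and 10.1% lower). Of the MRPL genes 7 were higher and 2 lower, and of the MRPS genes 2 were higher and 6 lower. With the replicate number as a block, 18 were higher and 13 lower, where 29.1% of all tested genes were called, and without combination library 4 the count of 17 was 11. Libraries did not overlap for 10 members, 13.3%, beside 20.7% of all tested genes. MRPL20 had 80.8 ± 14.1 CPM in the combination and 55.8 ± 7.45 CPM after the high dose (log2 fold change 0.54 ± 0.13, adjusted p = 0.00216). Every combination library lay above every high-dose library. MRPL57 (0.41 ± 0.12), MRPL51 (0.40 ± 0.10), MRPL50 (0.40 ± 0.13), MRPL41 (0.38 ± 0.10) and MRPL27 (0.35 ± 0.10) were also higher. MRPL58 had 25.0 ± 4.17 CPM in the combination and 37.5 ± 7.87 CPM after the high dose, a difference of -0.58 ± 0.14 (adjusted p = 0.00298). MRPS2 (-0.53 ± 0.12), MRPS30 (-0.43 ± 0.13), MRPS35 (-0.40 ± 0.10), MRPS18B (-0.36 ± 0.10) and MRPS26 (-0.34 ± 0.12) were lower as well. Single libraries ended calls for MRPL57 (high-dose library 3, combination library 4), MRPL50 (high-dose library 4, combination library 2 or 4), MRPL41 (combination library 2), MRPL27 (high-dose library 1, combination library 2 or 4), MRPS30 (high-dose library 4, combination library 1) and MRPS26 (high-dose library 2 or 4, combination library 1 or 3). The filter ended the call for MRPL50 when it was left out, and the fit of the compared groups alone that for MRPS26. MRPL10 averaged 52.7 ± 3.91 CPM in the combination, and neither its difference from the high dose (-0.17 ± 0.10) nor that from DMSO (0.33 ± 0.11, adjusted p = 0.063) was called.

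Set against prexasertib, the combination had 1 member lower, MRPS28, and none higher, 1.33% of the 75 beside 3.44% of all tested genes (1.04% called lower). With the replicate number as a block 12 were lower, where 10.0% of all tested genes were called. Libraries did not overlap for 5 members, 6.67%, beside 9.86% of all tested genes. Leaving out prexasertib library 1, 2 or 4, or combination library 1 or 3, gave 0, and leaving out combination library 2 or 4 gave 4 and 3. Set against the low dose, the combination had no called member, beside 3.85% of all tested genes. An unadjusted p under 0.05 was found for 8 members, 10.7%, against 14.8% of all tested genes, and libraries did not overlap for 3, 4.0%, against 9.09%. DESeq2 and limma-voom also called none, 4 were lower with the block, where 8.37% of all tested genes were called, and 1 was called without low-dose library 3 or without combination library 2. The interaction asks whether the combination differs from the sum of the prexasertib and low-dose effects on the log scale. It assumes that the combination held Dyngo-4a at 1 µM and prexasertib at 2 nM, which is not stated. The interaction called none of the 75, beside 0.284% of all tested genes. Its median was -0.02, 2 members had an unadjusted p under 0.05, where 6.56% of all tested genes did, and DESeq2 and limma-voom called none.

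Members with a short coding sequence had lower fold changes after the high dose. Over the 75 genes Spearman's rho between coding length and the high-dose log2 fold change was 0.43, and over 11636 tested protein-coding genes it was 0.187. With transcript length in place of coding length rho was 0.24 and 0.195. Genes are not independent replicates, and these values are descriptions. Among the 25 shortest members (195 to 477 bases) 11 fell and 0 rose, with a median of -0.34. Among the 25 of middle length 9 fell and 1 rose, and among the 25 longest (753 to 1317 bases) 1 fell and 4 rose, with a median of -0.01. The other tested genes within the short range numbered 920, had a median of -0.14, and were called lower in 27.3% and higher in 7.39%. Those within the middle range numbered 1318, had a median of -0.11, and were called lower in 20.8% and higher in 8.88%. Those within the long range numbered 9323, had a median of 0.04, and were called lower in 11.2% and higher in 14.9%. In the combination rho over the members was -0.18, and for the low dose it was 0.02.

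**Figure D5:**
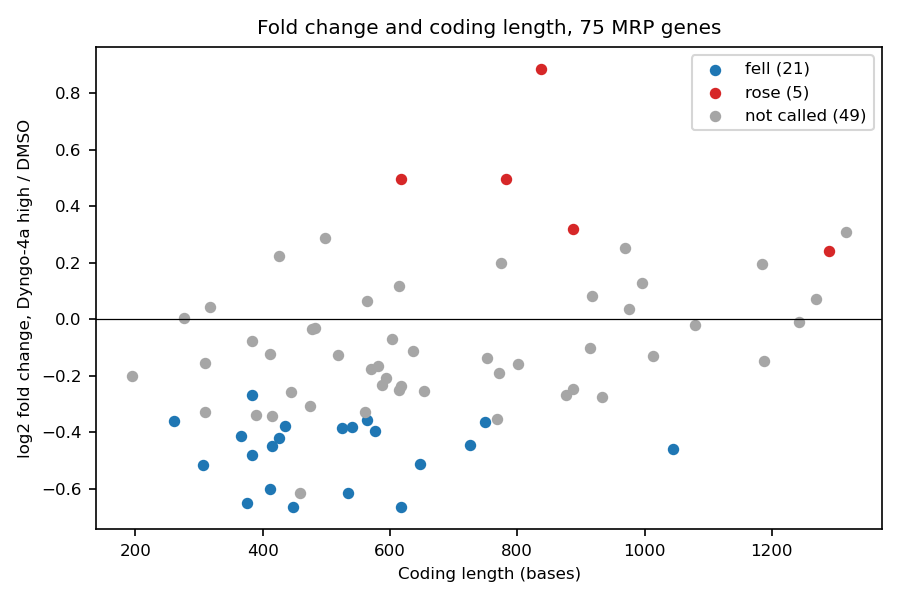
Log2 fold change after the high dose against DMSO of the 75 genes, plotted on coding length in bases. Blue genes fell (21), red genes rose (5), and grey ones were not called. Genes that fell had a median coding length of 447 bases and those that rose 837 bases.

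The members with a bacterial counterpart and those found only in mitochondria differed in count after the high dose against DMSO. Of 45 genes with a counterpart 16 fell and 3 rose, with a median log2 fold change of -0.27, and of 29 without one 5 fell and 2 rose, with a median of -0.02. The called shares were 42.2% and 24.1%, beside 25.2% of all tested genes, so the class without a counterpart was called at about the background share. Median coding lengths were 576 and 618 bases. Among genes up to the median length of all members, 12 of 24 with a counterpart and 4 of 13 without one fell. Among the longer ones, 4 of 21 and 1 of 16 fell. Set against the low dose instead, 8 of 45 and 5 of 29 fell after the high dose, and 3 rose in each class. The called shares there were 24.4% and 27.6%, beside 20.2% of all tested genes, and the medians were -0.16 and 0.07. The difference between the classes was not tested. In the combination 4 of 45 and 1 of 29 fell, 8.89% and 3.45%, beside 6.3% of all tested genes.

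Genes that serve the same ribosome were read from lists, whose called shares stand beside 25.2% of all tested genes for the high dose and 6.3% for the combination. Of 5 ribosomal proteins under other symbols, GADD45GIP1 fell after the high dose (-0.27 ± 0.10, adjusted p = 0.0407), a share of 20%, and none rose. Of 29 assembly factors 6 fell and 3 rose after the high dose, 31.0%. NGRN, which is needed for the 16S ribosomal RNA, had 26.0 ± 6.95 CPM after the high dose and 52.0 ± 7.60 CPM in DMSO (-0.99 ± 0.14), and RBFA, a small-subunit assembly factor, had 19.96 ± 2.77 CPM after the high dose and 28.1 ± 1.62 CPM in DMSO (-0.49 ± 0.13). NOA1 (0.48 ± 0.15) and METTL17 (0.37 ± 0.12), both linked to small-subunit assembly, rose. In the combination NGRN was at -0.02 ± 0.14, not called, and 1 assembly factor (3.45%) fell, TRMT61B (-0.62 ± 0.16), an RNA methyltransferase.

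Of 15 translation factors 2 fell and 1 rose after the high dose, a share of 20%, which is below the share of all tested genes. The elongation factors GUF1 (-0.45 ± 0.11) and GFM1 (-0.41 ± 0.11) fell, and the initiation factor MTIF3 rose (0.52 ± 0.11). In the combination LETM1 of this list, an inner-membrane protein, fell (-0.40 ± 0.11), 6.67% of the list. Of 23 genes of mitochondrial transcription and RNA handling 6 fell and 1 rose after the high dose, 30.4%. SLIRP, which stabilises mitochondrial mRNA, had 260 ± 30.7 CPM after the high dose and 417 ± 62.8 CPM in DMSO (-0.68 ± 0.10). TFAM, which packages and transcribes mitochondrial DNA, fell (-0.35 ± 0.09), and POLRMT, the mitochondrial RNA polymerase, rose (0.48 ± 0.16). SLIRP (-0.33 ± 0.10) and FASTKD3 (-0.81 ± 0.23) fell in the combination, 8.70% of the list.

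Of 21 genes of mitochondrial protein folding and import 7 fell and 2 rose after the high dose, 42.9%. The chaperonins HSPE1 and HSPD1 fell, with log2 fold changes of -1.08 ± 0.12 and -0.44 ± 0.09, and TIMM44 of the import motor rose (0.61 ± 0.12). HSPE1 had 151 ± 15.3 CPM after the high dose and 319 ± 40.2 CPM in DMSO, and in the combination it was at -0.15 ± 0.11, not called. TIMM50 and TIMM23 of the inner-membrane translocase fell in the combination (-0.39 ± 0.10 and -0.43 ± 0.12) and after the high dose (-0.44 ± 0.10 and -0.47 ± 0.12). In the combination they are 9.52% of the list. In the list of nuclear regulators 6 of 15 rose and 5 fell after the high dose, 73.3%, and 2 rose and 2 fell in the combination, 26.7%. DDIT3 and ATF5, transcription factors induced by cellular and mitochondrial stress, rose in both, by log2 fold changes of 2.01 ± 0.15 and 1.22 ± 0.18 after the high dose and 0.89 ± 0.15 and 0.82 ± 0.18 in the combination. MYCN fell in both (-0.48 ± 0.09 after the high dose and -0.44 ± 0.09 in the combination). Of the 83 genes taken by symbol as cytosolic ribosomal protein genes, 1 rose and 3 fell after the high dose, 4.82%. In the combination 1 rose and none fell, 1.2%. Their median log2 fold changes were 0.11 after the high dose and 0.16 in the combination.

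The promoters of 66 of the 75 genes could be read from RefSeq (GRCh38.p14), as the 250 bases before the gene's first listed start. On both strands, the ETS-type letters CCGGAAG, which GABPA is known to bind, occurred in 21 of the 66 windows, 31.8%, against 16.6% of 10002 tested genes with a window. The NRF1 motif occurred in 12.1%, against 11.1% of tested genes, the YY1 letters GATGGCG in 7.58%, against 3.57%, and the E-box CACGTG, which MYC and MYCN are known to bind, in 9.09%, against 9.24%. The GC box GGGCGG occurred in 54.5%, against 68.4%. By call after the high dose, the ETS letters were in 7 of 19 windows of genes that fell, in 1 of 4 of genes that rose and in 13 of 43 of the others. Both strands were searched by letters alone, so a match is a description and not a bound site. The windows of the 2 genes with the lowest and of 2 with the highest fold changes after the high dose follow, 5′ to 3′ in the direction of the gene, with ETS and GC-box letters on either strand in capitals. They lie at chr1:1407294-1407543 (minus strand), chr22:19432295-19432544 (plus strand), chr15:88467389-88467638 (minus strand) and chr17:75012420-75012669 (plus strand).
MRPL20: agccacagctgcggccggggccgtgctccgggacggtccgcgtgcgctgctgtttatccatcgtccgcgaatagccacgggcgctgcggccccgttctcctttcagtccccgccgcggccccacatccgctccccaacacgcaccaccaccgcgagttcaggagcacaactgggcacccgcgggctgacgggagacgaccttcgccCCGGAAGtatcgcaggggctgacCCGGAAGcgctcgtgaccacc
MRPL40: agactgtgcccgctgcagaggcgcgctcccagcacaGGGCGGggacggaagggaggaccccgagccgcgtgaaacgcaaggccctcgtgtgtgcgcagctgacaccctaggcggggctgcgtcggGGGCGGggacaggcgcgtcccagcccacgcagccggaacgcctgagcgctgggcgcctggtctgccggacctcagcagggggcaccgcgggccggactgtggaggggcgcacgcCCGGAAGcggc
MRPL46: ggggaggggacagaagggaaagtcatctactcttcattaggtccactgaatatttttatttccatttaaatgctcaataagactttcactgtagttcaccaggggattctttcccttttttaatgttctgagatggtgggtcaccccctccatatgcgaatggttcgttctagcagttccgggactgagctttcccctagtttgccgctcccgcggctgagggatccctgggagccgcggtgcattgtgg
MRPL58: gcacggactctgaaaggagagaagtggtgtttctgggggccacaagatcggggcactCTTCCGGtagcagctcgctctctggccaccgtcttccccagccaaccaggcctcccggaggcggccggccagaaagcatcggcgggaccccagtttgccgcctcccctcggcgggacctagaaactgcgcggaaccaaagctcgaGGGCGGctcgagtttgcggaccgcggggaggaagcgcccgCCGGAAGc

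The MRPL20 window holds a pair of ETS matches close to the start, that of MRPL58 holds 1 next to the start and 1 farther away, that of MRPL40 holds 1 next to the start, and that of MRPL46 holds none of the 5 motifs. Genes that fell and genes that rose thus both have windows with ETS letters. The MRPL40 window lies within the longer span that GENCODE 29 gives this gene. The MRPL46 window runs into MRPS11, since both genes start back to back on chromosome 15. In GENCODE 29 MRPL46 spans 88459476 to 88467419 on the minus strand and MRPS11, which encodes uS11m, 88467453 to 88480773 on the plus strand, with 33 bases between them. MRPS11 had 62.5 ± 2.56 CPM after the high dose and 70.1 ± 5.74 CPM in DMSO, a log2 fold change of -0.17 ± 0.10 that was not called (adjusted p = 0.25), beside 0.89 for MRPL46.

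Other values moved with the high dose. MALAT1, a nuclear RNA, took 2.96 ± 0.157% of counts after the high dose, 2.33 ± 0.538% in the combination, 1.56 ± 0.434% with the low dose, 1.42 ± 0.357% with prexasertib and 1.35 ± 0.417% in DMSO. Its part in the lower levels of the members was not tested. The summed level of 6 mesenchymal markers was 19.0 to 33.4 CPM after the high dose and 39.6 to 46.6 CPM in DMSO, with PRRX1 at 0 in both. Of the 6 only 2, COL1A1 and PDGFRB, averaged at least 1 CPM in these groups. Both were called lower, where 12.7% of all tested genes were. The part of this sum was not tested either. Of 9 tested neuroblast markers 5 fell and 3 rose after the high dose, a called share of 88.9% beside 25.2% of all tested genes. In the combination 1 fell, 11.1% beside 6.3% of all tested genes. Markers of glia, immune and endothelial cells summed to at most 3.11 CPM in any library.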

How the data were processed

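The authors deposited raw counts per gene for 58787 Ensembl identifiers in 20 QuantSeq 3′ libraries. Per the submitters' processing notes FastQC 0.11.7, STAR 2.7.2b, edgeR 3.36.0, limma 3.50.3 and GRCh38 were used; the strand setting and the treatment of molecular barcodes are not stated. Genes were filtered with filterByExpr (minimum count 10, minimum total 15), scaled by TMM (factors 0.968 to 1.03) and fitted in 1 model with edgeR 4.0.16 (robust quasi-likelihood, 15 residual degrees of freedom, R 4.3.3). Two-sided p-values were adjusted (Benjamini-Hochberg) over the 13729 genes of each of 9 comparisons. Symbols matched 58434 identifiers, and GENCODE 29 held 58515. Alternatives were other scalings and filters, DESeq2 1.42.0, limma-voom 3.58.1, the compared groups alone, a replicate block and leaving out each library. Models were tested on simulated data.

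The members and lists were chosen with earlier results of these data known. Named were, per comparison, up to 6 called members with the largest rise and 6 with the largest fall, the members with the highest and lowest DMSO levels, and up to 4 called genes per list; others were chosen after their values were seen. The main model held group alone in every comparison, and the replicate block was an alternative only. Replicate numbers were read as pairing libraries where every same-number correlation of deviations from the group means passed 0.1. This held for the low dose (0.144 to 0.237) and prexasertib (0.157 to 0.213) against DMSO, the high against the low dose (0.110 to 0.298), and the combination against prexasertib (0.115 to 0.230), the low dose (0.144 to 0.294) and the high dose (0.172 to 0.319). Intervals of counting error were not used. Libraries of a group differed by more than counting noise (chi-square per degree of freedom 3.07 to 8.84).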

Additional observations from a re-analysis of the deposited data

Results flagged for a closer look

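Of 135 groups of 4 libraries checked for the named members and the summed levels, 6 had 1 library far from the others, and chance alone gives about 1 in 20. MRPL46 had 8.09 CPM in high-dose library 1, with the next at 4.50 CPM, and its call against DMSO was lost without that library. MRPL58 had 30.9 CPM in low-dose library 4, with the next at 25.5 CPM. In DMSO library 2, MRPL17 was lowest at 45.6 CPM, with the next at 51.2 CPM, and MRPS6 was highest at 93.3 CPM, with the next at 78.6 CPM. MRPS7 was lowest in DMSO library 1 at 97.8 CPM, with the next at 113 CPM. The summed MRPS level was highest in DMSO library 4 at 2697 CPM, with the next at 2414 CPM, and without that library the change after the high dose was -4.21%.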

How the results depend on the processing

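The alternatives were run for the counts and for 41 pairs of a called member, 25 members in all, and a comparison, and not for the other members whose values the text gives. None of these pairs changed sign, and 21 kept their call under each of 28 alternatives. Called members ranged from 18 to 27 for the high dose against DMSO over single left-out libraries, from 1 to 7 for the combination against DMSO, from 12 to 21 for the high against the low dose, from 0 to 4 for the combination against prexasertib, from 0 to 1 against the low dose and from 11 to 21 against the high dose. For the low dose and prexasertib against DMSO and for the interaction they were 0 throughout. The numbers were not read as pairing libraries for the high dose (lowest correlation 0.0271) or the combination (0.0274) against DMSO. There the replicate block called 40 (10 higher, 30 lower) and 21 (1 higher, 20 lower). The share called over all tested genes also moves with the setting. Counts given in this section without that share describe the settings and are not results about the members. The block also called 12 for the combination against prexasertib, 4 against the low dose and 31 against the high dose, and changed no other count by more than 1.5 times. For the combination against prexasertib, library sizes alone, no filter and DESeq2 each called 3 and limma-voom 0. Library sizes alone called 1 for the combination against the low dose, and the compared groups alone called 1 for the combination against DMSO. Settings added after seeing the data were a term for numbers 1 and 3 against 2 and 4, which called 15 (combination against DMSO), 8 (against prexasertib) and 1 (against the low dose). Numbers 1 and 3 alone called 7 (high against low dose), 5, 2 and 9 (combination against prexasertib, the low and the high dose). Numbers 2 and 4 alone called 16 (high dose against DMSO), 0 (combination against DMSO), 9 (high against low dose), 0 (combination against prexasertib) and 11 (combination against the high dose). Except where the setting has fewer libraries, the cause was not tested. Few counts limit MRPL23, MRPL46 and MRPS28.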
